A study of Mus musculus with 4 samples.

Results

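The genes described here are 10 members of the piRNA pathway, *Piwil1*, *Piwil2*, *Mael*, *Tdrd1*, *Tdrd5*, *Tdrd9*, *Ddx4*, *Asz1*, *Mov10l1* and *Mybl1*. They were selected by symbol from the single-cell count tables of the postnatal testis, in which each was found once among 31053 genes. Their levels were followed over 6 germ cell stages, from undifferentiated spermatogonia to early pachytene spermatocytes, in 4 libraries.

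PIWI proteins are germline Argonautes that carry piRNAs, small RNAs that guide the silencing of transposons and protect the fertility of the male germline. piRNA precursors are selected, cut and loaded in perinuclear granules that are built by helicases and Tudor-domain proteins. An early set of piRNAs is made in fetal and neonatal germ cells, and a far larger set appears when spermatocytes reach the pachytene stage of meiosis. A-MYB, encoded by *Mybl1*, is the transcription factor known to switch on the precursors of these pachytene piRNAs and several genes of the pathway itself.

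Cells came from the testis region that contains the rete testis (RT) and the tubules next to it, at postnatal day 14 (P14), when the leading wave of germ cells has entered meiosis. Each library held the pooled cells of 3 C57BL/6 pups, with 5000 cells targeted. The 2 *Sox17*-cKO libraries came from SF1Cre:Sox17flox/flox pups, in which Cre is driven by *Nr5a1* (SF1) sequences in gonadal somatic cells, not in germ cells. The 2 control libraries are given the genotype SF1Cre in the sample records, whereas the methods describe Sox17flox/flox littermates. No source says that libraries with the same replicate number shared a litter. Replicate 1 of each genotype was counted with Cell Ranger 6.0.2 and replicate 2 with 6.1.2, as recorded with the deposited counts. The methods name 6.0.2 only. The replicate number and the recorded software version thus cannot be told apart. In the RT-like cells, *Sox17* was at 356, 312, 46.0 and 34.7 counts per 1e+06 UMIs (CPM), lower in both *Sox17*-cKO libraries. Here and throughout, 4 values in a row stand for replicates 1 and 2 of the controls, followed by replicates 1 and 2 of the *Sox17*-cKO.

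The libraries held 89969877 to 107203219 UMIs (unique molecular identifiers, 1 for each captured RNA molecule) in 9388 to 13364 barcodes, and any pair of libraries shared 20 to 43 barcodes. Cells with 1000 to 4500 detected genes were kept, 22567 in all, and 7828 cells with more genes were left out. Clustering without the 10 genes, or 24 other genes of the pathway, among its features gave 6 germ cell clusters with 7203 cells. They were named from stage markers, and each name means that the cells were like that stage: undifferentiated (580 cells), early differentiating (1229) and late differentiating spermatogonia (1902), preleptotene (1407), leptotene and zygotene (852) and early pachytene (1233). All 10 markers of undifferentiated spermatogonia and 8 of 11 of early pachytene were highest in their own stage, whereas for the 4 stages between them the counts were 4 of 6, 2 of 5, 2 of 6 and 5 of 11. In the early pachytene cells *Ldhc*, *Hspa2* and *Clgn* had their highest mean level, but *Pgk2*, *Ccna1* and *Adam3* stayed below 0.5 CPM, and none of the 11 markers was among the 10 leading genes of the cluster, which included *Gml* and *Tesmin*. A stage sum held 49 to 736 cells and 577904 to 6855680 UMIs per library. With an upper limit of 8000 genes instead, clusters named undifferentiated and late differentiating spermatogonia held 2328 and 5405 cells. The levels given here thus cover only the cells with at most 4500 genes.

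All 10 genes are protein-coding and lie on separate loci of the mouse genome (GRCm38, GENCODE vM21). On the plus strand lie *Piwil1* (chr5:128702524-128755474), *Mov10l1* (chr15:88982909-89055152), *Tdrd1* (chr19:56826209-56870012) and *Tdrd9* (chr12:111971559-112068854). On the minus strand lie *Piwil2* (chr14:70372477-70429383), *Mael* (chr1:166201201-166238747), *Tdrd5* (chr1:156255296-156303664), *Ddx4* (chr13:112598333-112652475), *Asz1* (chr6:18050964-18109061) and *Mybl1* (chr1:9667415-9700209). *Tdrd5*, *Piwil1* and *Tdrd9* each overlap a gene on the opposite strand. On its own strand *Tdrd5* overlaps the unclassified transcript *A430050A11Rik*, *Mov10l1* the small RNA gene *Gm23737* and *Piwil2* the small RNA genes *Gm22725* and *Gm24890*. Whether these overlapping genes were in the annotation used for counting, and could so share UMIs, was not tested. Because A-MYB is known to act on promoters of this pathway, the 250 bases before the RefSeq start (GRCm38.p6) were searched for 4 words of the MYB core on both strands: TAACGG, the same word ending in another dinucleotide as TAACTG, and the related words spelled CAACGG and, again with the other ending, CAACTG. The RefSeq start can lie inside the GENCODE gene, as for *Piwil1*. Windows were found for 8 of the 10 genes, not for *Piwil2* and *Mybl1*. Those of *Piwil1* (2 matches), *Mov10l1* and *Tdrd5* (1 each) held a word, 3 of the 10 windows of these genes (*Tdrd1* has 3), against 23.7% of all 32851 such windows. The windows of these 3 genes and that of *Ddx4*, without a match, are printed 5′ to 3′ with the matches in capitals, to show where the words lie. All 4 genes rose at early pachytene, as did *Tdrd1*, *Tdrd9* and *Asz1*, whose windows held no match. A match is a word in the sequence, and binding was not measured.
Piwil1 (chr5:128735996-128736245, plus strand): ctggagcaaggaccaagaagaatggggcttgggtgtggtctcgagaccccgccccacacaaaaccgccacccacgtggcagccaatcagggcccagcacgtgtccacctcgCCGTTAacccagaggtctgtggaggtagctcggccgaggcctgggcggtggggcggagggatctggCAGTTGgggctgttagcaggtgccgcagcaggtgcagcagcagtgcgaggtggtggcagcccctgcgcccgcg
Mov10l1 (chr15:88982744-88982993, plus strand): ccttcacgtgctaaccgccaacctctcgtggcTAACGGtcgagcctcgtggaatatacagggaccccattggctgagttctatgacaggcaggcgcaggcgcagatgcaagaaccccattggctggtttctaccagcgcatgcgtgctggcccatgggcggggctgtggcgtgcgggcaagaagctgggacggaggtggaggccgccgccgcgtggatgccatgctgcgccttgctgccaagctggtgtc
Tdrd5 (chr1:156303349-156303598, minus strand): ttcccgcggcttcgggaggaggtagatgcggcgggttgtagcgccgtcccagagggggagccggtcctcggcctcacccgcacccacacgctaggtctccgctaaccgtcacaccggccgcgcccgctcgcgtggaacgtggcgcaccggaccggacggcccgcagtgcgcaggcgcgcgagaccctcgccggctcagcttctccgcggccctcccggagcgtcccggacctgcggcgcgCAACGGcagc
Ddx4 (chr13:112652311-112652560, minus strand): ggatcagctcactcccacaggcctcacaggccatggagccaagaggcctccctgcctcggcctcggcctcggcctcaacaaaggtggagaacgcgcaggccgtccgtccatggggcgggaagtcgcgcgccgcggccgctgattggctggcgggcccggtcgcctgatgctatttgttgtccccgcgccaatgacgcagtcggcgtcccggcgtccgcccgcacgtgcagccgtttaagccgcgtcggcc

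Levels are UMIs of a gene per 1e+06 UMIs of the stage in a library (CPM), and the 4 libraries are the replicates (mean ± SD, n = 4). Adjacent stages were compared with edgeR's quasi-likelihood test on the summed UMIs of 24 stage sums, with the library as a block and Benjamini-Hochberg adjustment over the 11869 genes tested. Stages were defined on the same cells from other genes, and the p-values do not account for this. With the library as a block, these p-values do not measure how far the libraries differ in level. They rest on how far the differences between stages vary from library to library, pooled over the 24 sums with information shared over genes. In alternatives with another clustering the stage names covered other sets of cells. Without integration of the libraries, early and late differentiating spermatogonia held 3101 and 580 cells, against 1229 and 1902 here. A call lost there thus compares stages that were drawn differently.

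From leptotene and zygotene to early pachytene, 8 of the 10 genes rose, against 24% of all genes tested. *Mybl1* fell, against 24.6%, and *Mael* was not called. The 10 genes and the list of other pathway genes were chosen with earlier results of these data known. Counts set against all genes or against that list are thus a description and no test of enrichment. All 8 genes that rose did so in 4 of 4 libraries. The same 8 genes were called higher within the replicate 1 libraries alone (all genes 20.9%) and within the replicate 2 libraries alone (all genes 20.3%), and their calls held in every alternative that kept a leptotene and zygotene stage. The earlier steps brought 0, 1, 2 and 2 rises (all genes 21.2, 24.7, 24.1 and 30.5%) and 7, 5, 3 and 3 falls (all genes 21.3, 25.3, 25.5 and 26.7%). Falls thus outnumbered rises, but at the steps to preleptotene and to leptotene and zygotene they were near the share of all genes. *Mybl1* gave 3 of those 5 rises.

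**Figure D1:**
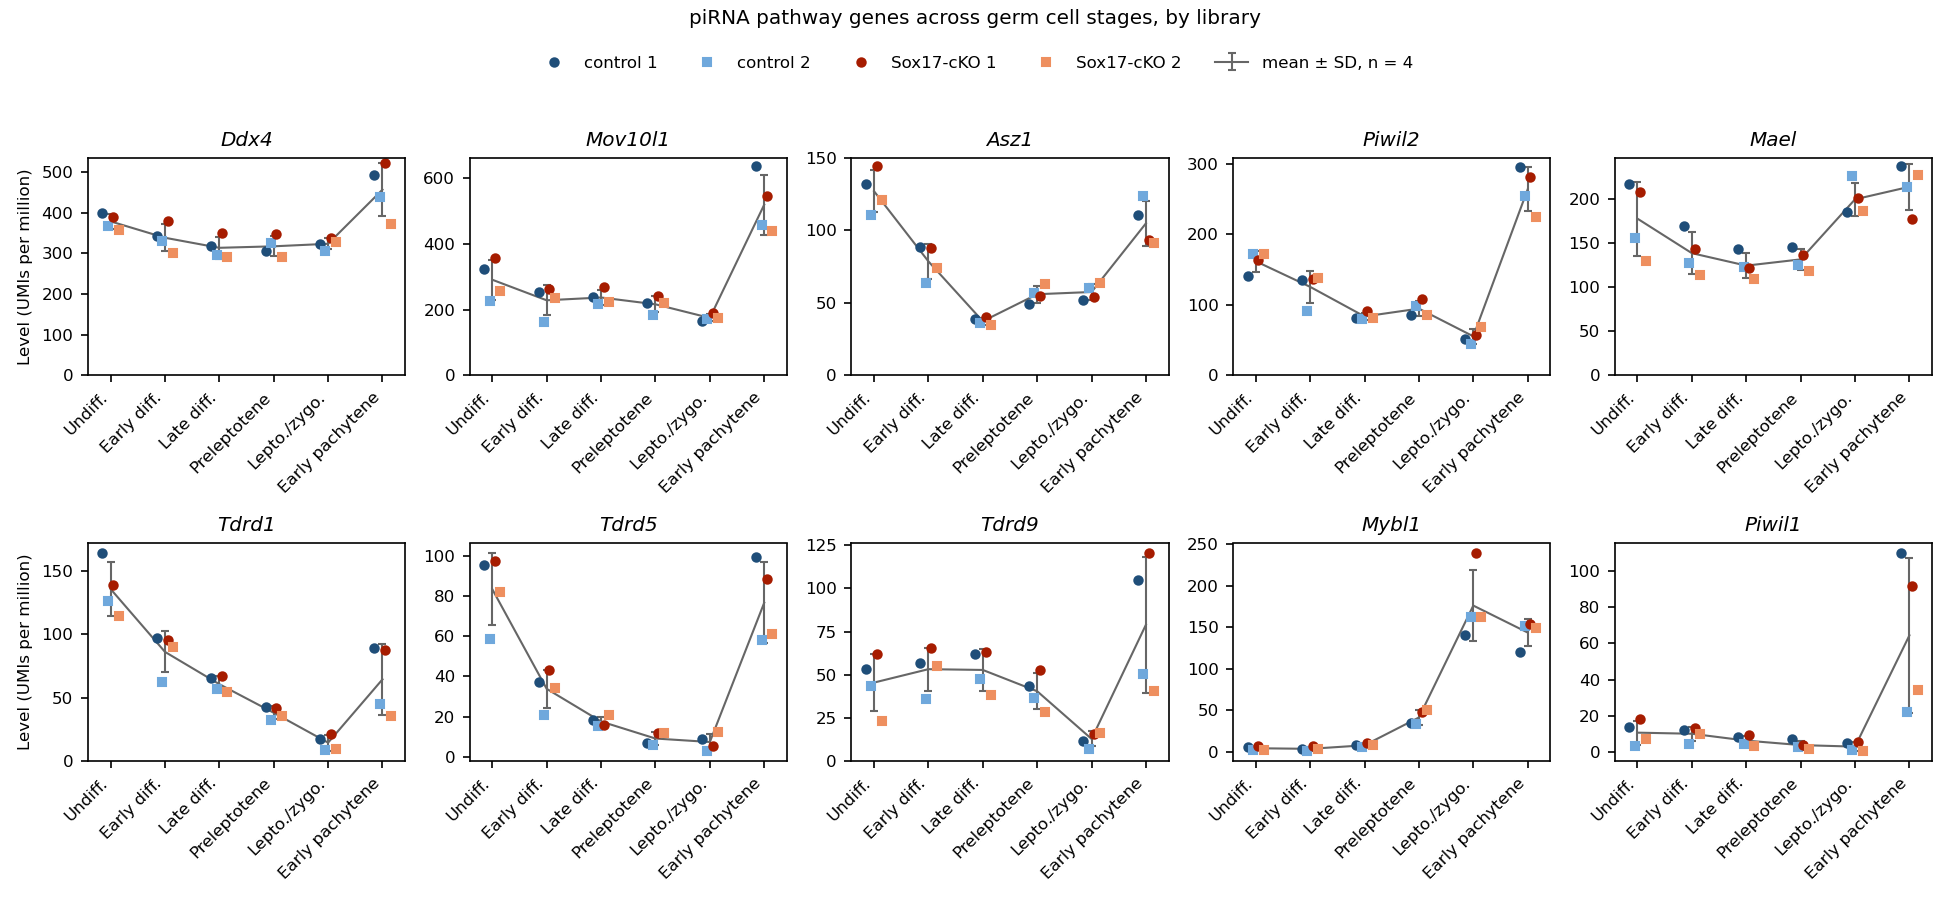
Level of each gene (CPM, linear axes starting at or just under 0, a separate scale per gene) in the 6 germ cell stages; symbols are the 4 libraries and the grey line is their mean ± SD. *Tdrd1*, *Tdrd5*, *Tdrd9*, *Piwil2* and *Mov10l1* are lowest or near lowest in leptotene and zygotene and higher in early pachytene, *Piwil1* is above all its other values at early pachytene, and *Mybl1* rises in the stages before it.

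Of the PIWI proteins, *Piwil2* (MILI) is present in spermatogonia and spermatocytes and takes part in both the early and the pachytene piRNA systems. Its level was 140.0, 171, 163 and 172 CPM in undifferentiated spermatogonia. It stood at 80.8, 80.3, 91.1 and 81.6 CPM in late differentiating spermatogonia, a fall from the early differentiating stage that changed sign without integration, and fell to 51.2, 43.7, 57.8 and 68.3 CPM in leptotene and zygotene. In early pachytene it was 295, 255, 281 and 224 CPM, above every value of the other stages. The rise from leptotene and zygotene was 4.72-fold (log2 fold change 2.24, SE 0.129, adjusted p = 5.34e-15), and early pachytene exceeded undifferentiated spermatogonia by 1.65-fold (adjusted p = 2.48e-06). *Piwil2* was thus a gene with a trough in early meiosis and its highest mean level at early pachytene.

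*Piwil1* (MIWI) is the PIWI protein of pachytene spermatocytes and round spermatids. It was at 13.8, 3.46, 18.4 and 7.35 CPM in undifferentiated spermatogonia and at 4.80, 1.17, 5.39 and 0.865 CPM in leptotene and zygotene. The latter values rest on 23 UMIs in all and lay below those of Sertoli-like cells of the same library in 4 of 4 libraries. Whether UMIs at this level come from free RNA was not tested. Early pachytene cells had 109.5, 22.2, 91.6 and 34.2 CPM, from 604 UMIs. The fold change was 19.5 (log2 fold change 4.29, SE 0.272, adjusted p = 3.83e-14), the largest among the 10 genes in any adjacent step. Every early pachytene value was above all values of the earlier stages, and both replicate 1 libraries were above both replicate 2 libraries. The falls of *Piwil1* before meiosis were between values of at most 13.5 CPM and were lost in several alternatives, among them leaving out either *Sox17*-cKO library.

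*Mov10l1*, a helicase that hands piRNA precursors to the processing machinery, had 323, 227, 358 and 255 CPM in undifferentiated spermatogonia and 164, 170.3, 189 and 175 CPM in leptotene and zygotene. Its early pachytene level was 637, 457, 545 and 438 CPM, a 2.86-fold rise (log2 fold change 1.52, SE 0.110, adjusted p = 6.43e-13), with no overlap between the stages. Between the early differentiating and preleptotene stages no step of *Mov10l1* was called. *Asz1*, a scaffold on the outer face of mitochondria where precursors are cut, took another course. Its mean was highest in undifferentiated spermatogonia (132, 111, 145 and 121 CPM) and lowest in late differentiating spermatogonia (38.7, 36.0, 40.2 and 34.5 CPM, 0.448 of the early differentiating level, adjusted p = 9.69e-09). *Asz1* then rose in 2 steps, to 49.2, 57.0, 54.7 and 63.1 CPM in preleptotene cells (adjusted p = 3.19e-04) and from 51.7, 60.1, 54.4 and 64.0 CPM in leptotene and zygotene to 111, 124, 93.4 and 91.6 CPM in early pachytene (adjusted p = 4.2e-06). The fall to the late differentiating stage lost its call without integration of the libraries.

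The Tudor-domain genes encode proteins that dock on the methylated arginines of PIWI proteins and assemble the granules. *Tdrd1*, the partner of MILI, fell at each of the 4 steps from undifferentiated spermatogonia (164, 126, 139 and 114 CPM) through preleptotene (42.5, 32.1, 41.7 and 35.5 CPM) to leptotene and zygotene (17.6, 8.75, 21.6 and 9.51 CPM). All 4 falls were called, with adjusted p between 4.11e-06 and 9.68e-04, but that to late differentiating spermatogonia lost its call without integration. At early pachytene *Tdrd1* was at 89.4, 45.2, 87.9 and 35.2 CPM, 4.37-fold higher than in the stage before (log2 fold change 2.13, SE 0.193, adjusted p = 8.03e-11) but 0.480 of its undifferentiated level (adjusted p = 1.42e-07). This last call, between early pachytene and undifferentiated spermatogonia, was lost with an upper limit of 8000 genes per cell.

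*Tdrd5*, needed for granule assembly and for pachytene piRNAs, fell at each of the 3 steps up to preleptotene, the last of which lost its call without integration. It was at 95.6, 58.8, 97.5 and 81.9 CPM in undifferentiated, 37.2, 20.7, 43.3 and 34.1 CPM in early differentiating and 18.2, 15.3, 16.0 and 20.8 CPM in late differentiating spermatogonia. Preleptotene cells had 6.71, 5.97, 11.7 and 12.01 CPM and leptotene and zygotene cells 9.07, 2.92, 5.39 and 12.1 CPM, against 7.15, 2.80, 8.11 and 3.90 CPM in Sertoli-like cells, which were lower than leptotene and zygotene cells in 3 of 4 libraries. It then reached 99.3, 58.3, 88.3 and 61.1 CPM at early pachytene, 10.95-fold higher (log2 fold change 3.45, SE 0.219, adjusted p = 3.83e-14). Those values overlapped the undifferentiated ones, and the difference between the last and the first stage was not called (log2 fold change -0.13, adjusted p = 0.451).

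*Tdrd9*, a helicase with a Tudor domain known for transposon silencing, held its level longer. It was at 53.3, 43.3, 61.9 and 23.1 CPM in undifferentiated and 62.1, 47.6, 63.0 and 38.2 CPM in late differentiating spermatogonia, and no step up to preleptotene was called. It fell to 11.7, 6.997, 15.7 and 16.4 CPM in leptotene and zygotene (log2 fold change -1.63, SE 0.233, adjusted p = 7.15e-07) and rose to 105, 50.1, 120.4 and 40.7 CPM in early pachytene (log2 fold change 2.66, SE 0.220, adjusted p = 1.08e-11). The ranges of both steps did not overlap, and the replicate 1 libraries were again the higher ones at early pachytene.

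*Ddx4* (mouse VASA homologue) and *Mael* code for general components of the germ granule. *Ddx4*, the broadest germ cell marker among the 10 genes, varied least: 290.5 to 399.9 CPM over the stages up to leptotene and zygotene, including 324, 306, 338 and 328 CPM in the last of them. It rose to 494, 439, 523 and 373 CPM at early pachytene, 1.36-fold (log2 fold change 0.45, SE 0.0807, adjusted p = 2.21e-05). Its small fall from undifferentiated to early differentiating spermatogonia (log2 fold change -0.22, adjusted p = 0.0328) was lost when any 1 library was left out. *Mael* was the only gene of the 10 that rose from preleptotene (145, 125, 136 and 119 CPM) to leptotene and zygotene (185, 226, 201 and 186 CPM) besides *Mybl1* (log2 fold change 0.73, SE 0.124, adjusted p = 9.99e-06). It did not change further by the test at early pachytene (237, 213, 177 and 227 CPM, log2 fold change 0.04, adjusted p = 0.849).

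*Mybl1* had 5.82, 1.73, 7.14 and 2.10 CPM in undifferentiated spermatogonia, from 34 UMIs, and 7.88, 5.42, 10.2 and 7.64 CPM in late differentiating spermatogonia. Its rise at the step to the latter stage (adjusted p = 0.00693) lost its call without integration and without control 1. Preleptotene cells had 34.7, 32.8, 47.5 and 50.1 CPM (5.14-fold, log2 fold change 2.36, SE 0.182, adjusted p = 5.74e-12) and leptotene and zygotene cells 141, 162, 239 and 163 CPM (a further 4.69-fold, log2 fold change 2.23, SE 0.143, adjusted p = 1.64e-13). No library overlapped between these stages. The undifferentiated level was above that of Sertoli-like cells in 0 of 4 libraries. The late differentiating level was near that of interstitial-like cells, so the 5.14-fold rise starts from a level that somatic cells also held. That rise also ended near a somatic level, with a preleptotene mean of 41.2 CPM and a Sertoli-like mean of 37.6 CPM. At early pachytene *Mybl1* was at 120.1, 151, 154 and 149 CPM, 0.790 of the stage before (adjusted p = 0.0308). That small fall was lost under several alternatives, among them DESeq2, a clustering resolution of 0.8 and leaving out *Sox17*-cKO 1. The transcript of the A-MYB factor thus had its highest mean level in the stage in which *Piwil1*, *Piwil2*, *Mov10l1*, *Tdrd1*, *Tdrd5* and *Tdrd9* were at their lowest mean level over the 6 stages.

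**Figure D2:**
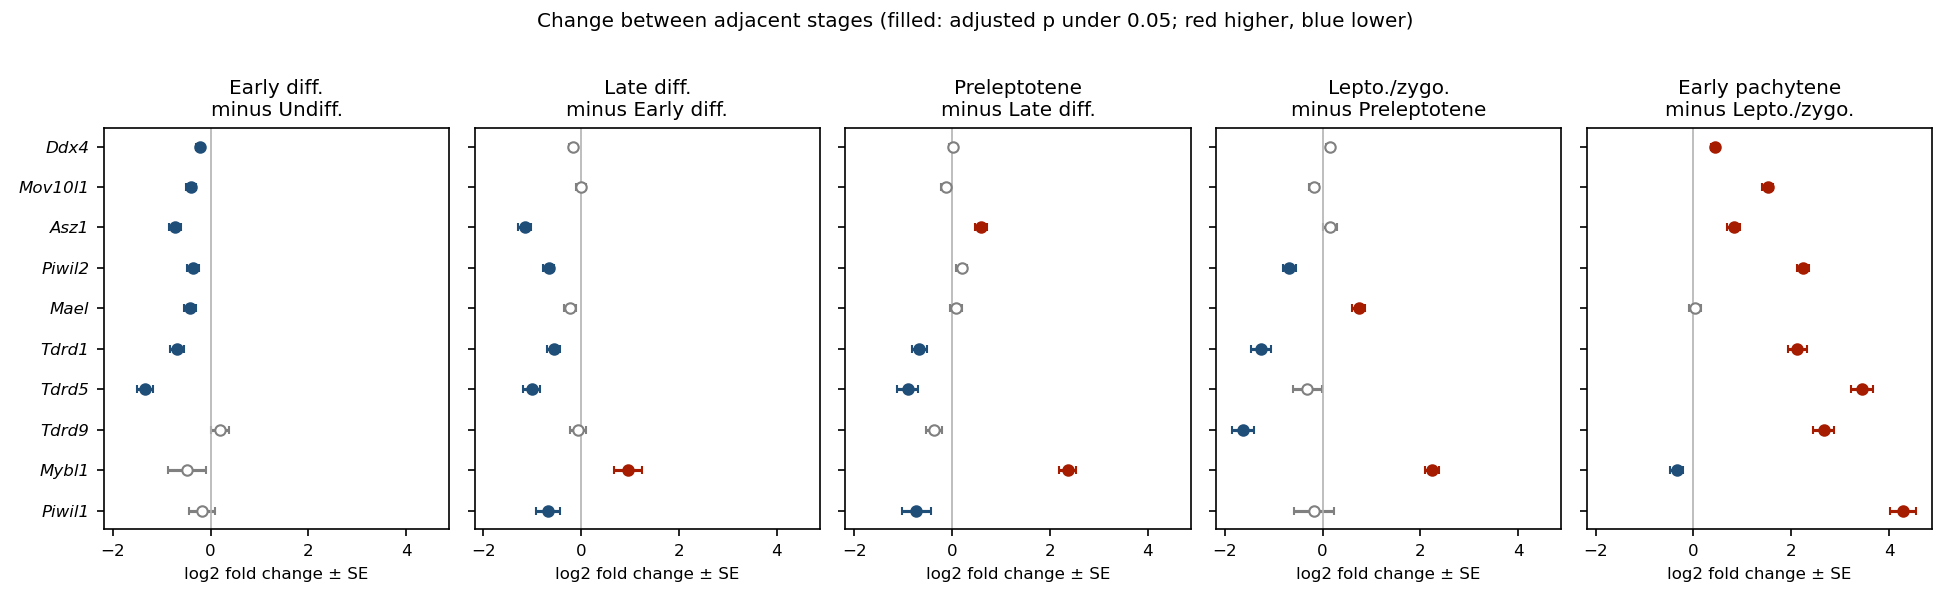
Log2 fold change ± SE (edgeR) of each gene between adjacent stages; filled points passed an adjusted p of 0.05, red higher and blue lower in the later stage. In the last panel 8 of 10 points lie to the right of 0, with *Piwil1* at 4.29, and *Mybl1* is to the right in the 3 panels before it.

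Counted by step, 0 of 10 genes rose and 7 fell from undifferentiated to early differentiating spermatogonia, against 21.2% and 21.3% of all genes tested. The falls of *Asz1*, *Tdrd1* and *Tdrd5* kept their call in every alternative, and those of *Piwil2*, *Mael*, *Ddx4* and *Mov10l1* did not. From early to late differentiating spermatogonia, 1 rose and 5 fell (all genes 24.7% and 25.3%). At the step to preleptotene, 2 rose and 3 fell (all genes 24.1% and 25.5%), and at the step to leptotene and zygotene also 2 rose and 3 fell (all genes 30.5% and 26.7%). Of the 6 calls at the step to late differentiating spermatogonia, *Tdrd5* alone kept its call in every alternative. At the step to preleptotene the falls of *Piwil1* and *Tdrd5* lost theirs in at least 1 alternative, whereas the 5 calls at the step to leptotene and zygotene kept theirs wherever that stage was separate. Between early pachytene and undifferentiated spermatogonia, 6 genes were higher and 2 lower (all genes 37.5% and 36.8%). The lower ones were *Tdrd1* and *Asz1*, and the call of *Asz1* (log2 fold change -0.33, adjusted p = 0.0207) was lost under several alternatives, among them a resolution of 0.8 and leaving out either *Sox17*-cKO library. Of the higher ones, *Piwil1*, *Piwil2*, *Mov10l1* and *Mybl1* kept their call in every alternative, while *Ddx4* lost it without control 1, without *Sox17*-cKO 1 and in the replicate 2 libraries alone, and *Tdrd9* in the latter. The median log2 fold change of the 10 genes was -0.41 at the earliest step and 1.82 at the last adjacent step, against 0.02 and 0.02 for all genes.

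Cell by cell, after thinning every cell to 3000 UMIs and leaving out shallower cells, a UMI of *Ddx4* was found in 362 of 554 cells (65.3%, 95% interval 61.2 to 69.3%) in undifferentiated spermatogonia and in 589 of 879 cells (67.0%, 95% interval 63.8 to 70.1%) at early pachytene. *Piwil1* was found in 18 of 554 cells (3.25%, 95% interval 1.94 to 5.09%), 8 of 833 cells (0.960%, 95% interval 0.416 to 1.88%) and 125 of 879 cells (14.2%, 95% interval 11.98 to 16.7%) of undifferentiated, leptotene and zygotene, and early pachytene cells. Sertoli-like and interstitial-like cells had 1.25% and 0.989%, so that the leptotene and zygotene share was no higher than in these somatic cells. The source of the *Piwil1* UMIs in them was not tested. By library, the early pachytene share of *Piwil1* was 17.0, 3.79, 19.7 and 6.82%, a spread that the interval of the pooled share does not cover. *Mybl1* was found in 14 of 554 cells (2.53%, 95% interval 1.39 to 4.204%), 328 of 833 cells (39.4%, 95% interval 36.0 to 42.8%) and 283 of 879 cells (32.2%, 95% interval 29.1 to 35.4%). The share of *Tdrd5* went from 24.7% to 1.92% and back to 21.0% over the same 3 stages, against 1.98% in Sertoli-like and 1.37% in interstitial-like cells. Without thinning, the *Piwil1* shares were 13.4%, 2.58% and 20.4%, at median depths of 11881, 7295 and 5171 UMIs per cell. A thinned cell held a UMI of 3.09 of the 10 genes on average in undifferentiated spermatogonia, 2.14 in preleptotene and 3.60 in early pachytene cells, against 0.494 in Sertoli-like and 0.221 in interstitial-like cells. The number of genes seen together per cell was highest in early pachytene cells in 4 of 4 libraries, and the low values of the 3 stages before it did not keep 1 order over the libraries. The intervals are exact binomial ones and cover counting error only. The thinning left out 354 of 1233 early pachytene cells, 202 of them from *Sox17*-cKO 1.

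The other genes of the pathway were taken from a list of 24, of which 23 could be tested. Alternatives were run for the 10 genes only, so how the calls of these 23 depend on the processing was not tested. At the last adjacent step 8 rose and 3 fell (all genes 24% and 24.6%), and their median log2 fold change was 0.11, against 1.82 for the 10 genes. *Tcfl5*, a transcription factor linked to pachytene piRNA genes, rose from 46.0 ± 9.56 to 149.6 ± 16.4 CPM (adjusted p = 8.45e-13). *Tdrd12* rose from 22.6 ± 4.95 to 95.4 ± 30.9 CPM (adjusted p = 9.42e-13) and *Tdrd3* from 3.09 ± 0.906 to 18.2 ± 5.30 CPM (adjusted p = 3.03e-09), both Tudor-domain genes. The 3 that fell were *Tex15*, a gene needed for transposon silencing and meiotic recombination, from 2032 ± 444 to 490.2 ± 110.1 CPM (adjusted p = 5.00e-12), *Tdrkh*, a mitochondrial Tudor protein (adjusted p = 3.84e-08), and *Stk31* (adjusted p = 0.00360). All 3 had reached their highest mean level in leptotene and zygotene, as *Mybl1* had.

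At the step to early differentiating spermatogonia 3 of the 23 rose and 11 fell (all genes 21.2% and 21.3%). *Morc1*, which acts in transposon silencing in the fetal germline, fell from 49.4 ± 18.8 to 17.6 ± 9.69 CPM (adjusted p = 4.15e-07), with *Stk31* and *Gtsf1*, a cofactor of PIWI proteins (adjusted p = 1.94e-06 and 2.72e-06). *Tdrkh*, *Pld6*, a nuclease of the mitochondrial surface, and *Rnf17* rose (adjusted p = 2.59e-04, 0.00187 and 0.0457). From early to late differentiating spermatogonia 3 rose and 11 fell (all genes 24.7% and 25.3%). *Gtsf1* went from 147 ± 48.7 to 52.6 ± 7.48 CPM (adjusted p = 9.39e-10), *Mov10*, the somatic relative of *Mov10l1*, from 44.8 ± 17.1 to 12.3 ± 6.55 CPM (adjusted p = 1.06e-08) and *Piwil4*, the nuclear PIWI protein of the fetal germline, from 9.26 ± 4.81 to 1.44 ± 0.528 CPM (adjusted p = 3.76e-08). *Tex15*, *Prmt5* and its partner *Wdr77*, which methylate the arginines that Tudor domains bind, rose (adjusted p = 0.00185, 0.00227 and 0.00378). *Morc1* and *Piwil4* thus had their highest mean level in undifferentiated spermatogonia, at 49.4 ± 18.8 and 27.4 ± 5.37 CPM.

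At the step to preleptotene 9 rose and 5 fell (all genes 24.1% and 25.5%), led by *Stk31*, *Gpat2* and *Gtsf1* among the rises (adjusted p = 1.59e-09, 6.80e-08 and 6.18e-07) and *Wdr77*, *Tcfl5* and *Henmt1*, the methyltransferase of piRNA ends, among the falls (adjusted p = 1.30e-05, 0.00291 and 0.00567). At the step to leptotene and zygotene 6 rose and 11 fell (all genes 30.5% and 26.7%). *Stk31*, *Tex15* and *Exd1* were higher (adjusted p = 4.39e-10, 1.61e-05 and 3.99e-05), and *Fkbp6*, a chaperone partner of the pathway, *Pnldc1*, the exonuclease that trims piRNAs, and *Wdr77* were lower (adjusted p = 4.24e-08, 6.38e-07 and 3.08e-06). *Pnldc1* stood at 38.5 ± 9.86 CPM in undifferentiated spermatogonia and 4.22 ± 2.22 CPM at early pachytene, and *Henmt1* at 49.98 ± 11.1 and 4.73 ± 3.02 CPM. Both genes, which act in piRNA maturation, were thus lower at early pachytene than in undifferentiated spermatogonia. Their lowest mean levels were in leptotene and zygotene, as was that of *Piwil1*. From there to early pachytene *Henmt1* rose from 4.83 to 9.46% of its undifferentiated level (log2 fold change 1.08, SE 0.412, adjusted p = 0.0306). *Pnldc1* was not called (log2 fold change 0.38, SE 0.367, adjusted p = 0.429). In leptotene and zygotene neither gene passed the low-count filter of the genotype comparison. Whether the changes of these genes differ was not tested. Between early pachytene and undifferentiated spermatogonia (all genes 37.5% higher and 36.8% lower) 8 of the 23 were higher, led by *Tdrd12*, *Rnf17* and *Stk31* (adjusted p = 3.24e-09, 1.18e-06 and 4.52e-05), and 11 lower, led by *Fkbp6*, *Morc1* and *Henmt1* (adjusted p = 1.33e-13, 1.84e-13 and 2.60e-13).

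**Figure D3:**
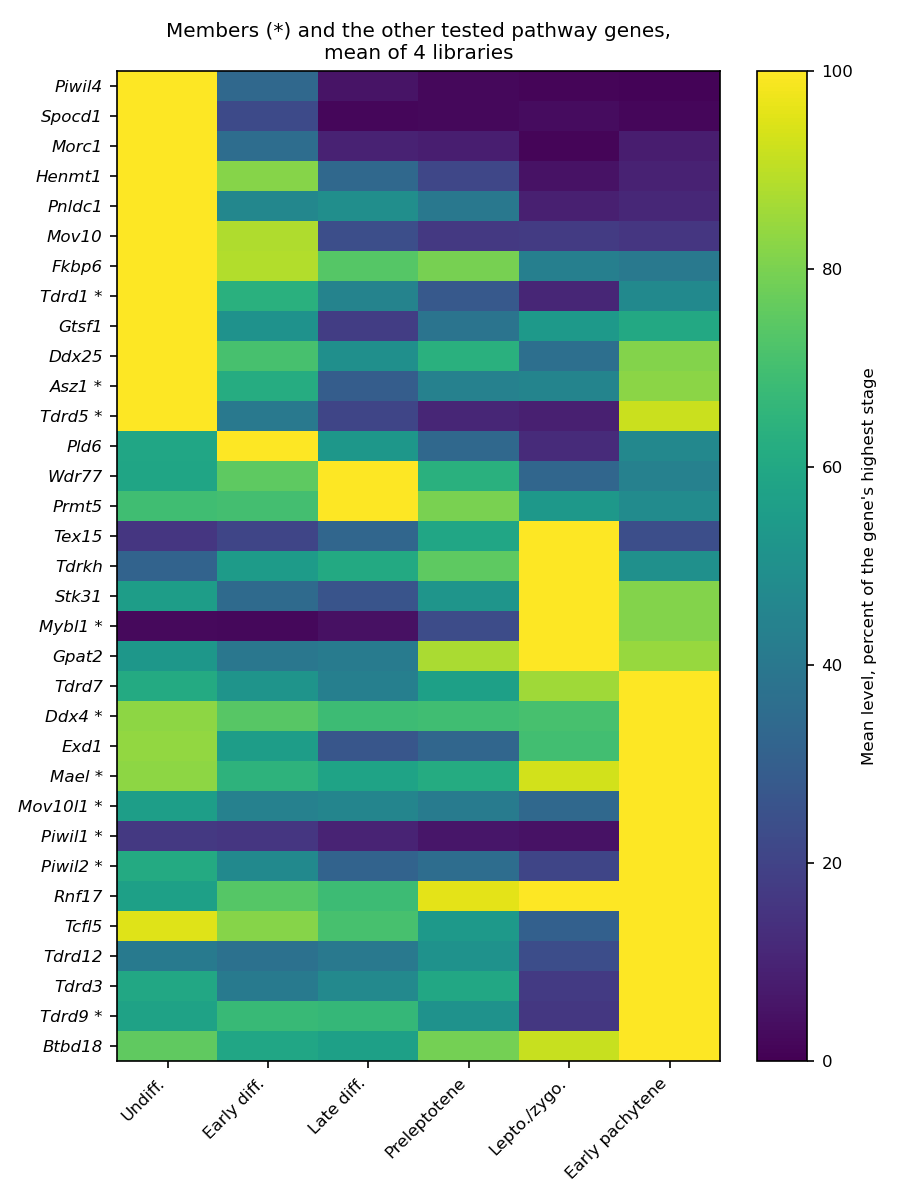
Mean level (4 libraries) of the 10 genes (marked with *) and the 23 other tested pathway genes in each stage, as a percent of the gene's highest stage and ordered by that stage. Of the 10 genes, 6 are highest at early pachytene, 3 in undifferentiated spermatogonia and 1 in leptotene and zygotene, and of the other 23 genes 7, 9 and 4.

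Outside both lists, the genes whose levels over the 24 stage sums were most like a member were named by Pearson's r of log2(CPM + 1), as a description, since the sums share libraries and cells. For *Mybl1* they were *Dnajc3* (r = 0.994), *Cdkl2* (0.986) and *Mdc1* (0.985). *Dnajc3* went from 56.4 ± 11.9 CPM in undifferentiated spermatogonia to 508 ± 56.4 CPM in leptotene and zygotene. For *Piwil2* they were *Psma8* (0.956), the proteasome subunit of spermatocytes, and *Pbx4* (0.914), and for *Piwil1* *Baz2b* (0.918), *Pabpc1* (0.918) and *Wdr60* (0.913). *Psma8* had 12.1 ± 2.39 CPM in leptotene and zygotene and 154 ± 28.0 CPM at early pachytene.

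The *Sox17*-cKO libraries were compared with the control libraries within each stage, since *Sox17* was deleted in somatic cells next to these germ cells. No member was called in any of the 6 stages (57 tests over members and stages, edgeR, 2 libraries against 2), against 0% of all genes in each stage. At an unadjusted p under 0.05 there were also 0 members and 13 to 43 of 9151 to 11031 genes per stage, and DESeq2 called 0 genes. That is far fewer genes than this threshold marks where nothing differs, so a lack of calls does not show a lack of difference. The fit has no term for the replicate number. Over genes, the median absolute log2 difference was 0.288 to 0.379 between replicate numbers and 0.118 to 0.191 between genotypes. The log2 fold changes of the members ran from -0.67 (*Piwil1*, preleptotene) to 0.87 (*Tdrd5*, preleptotene), with an SE of 0.201 to 0.787. The smallest unadjusted p, that of *Tdrd5* in preleptotene cells, was 0.054. *Mybl1* in preleptotene cells was at 34.7, 32.8, 47.5 and 50.1 CPM, without overlap between the genotypes (log2 fold change 0.50, SE 0.228, unadjusted p = 0.0652). With 2 libraries a group, a lack of overlap often arises where nothing differs. The share of all genes without overlap was not counted, so no genotype effect on *Mybl1* can be read from it. *Piwil1* at early pachytene, at 109.5, 22.2, 91.6 and 34.2 CPM, overlapped (log2 fold change -0.15, SE 0.772), and so did *Mov10l1* (log2 fold change -0.20, SE 0.264). Whether the genotype effect differed between stages was tested as an interaction, which called 0 of 12317 genes (105 at an unadjusted p under 0.05, 0 of them members; 0%). Leaving out control 1, control 2, *Sox17*-cKO 1 or *Sox17*-cKO 2 gave 49, 6, 28 and 1 called genes over the 6 stages. Each of these fits leaves 1 library in a genotype, which is assumed to vary like the other genotype's pair, and says nothing of the stability of the count of members. With 2 libraries a group and SEs of this size, small differences were not detectable.

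**Figure D4:**
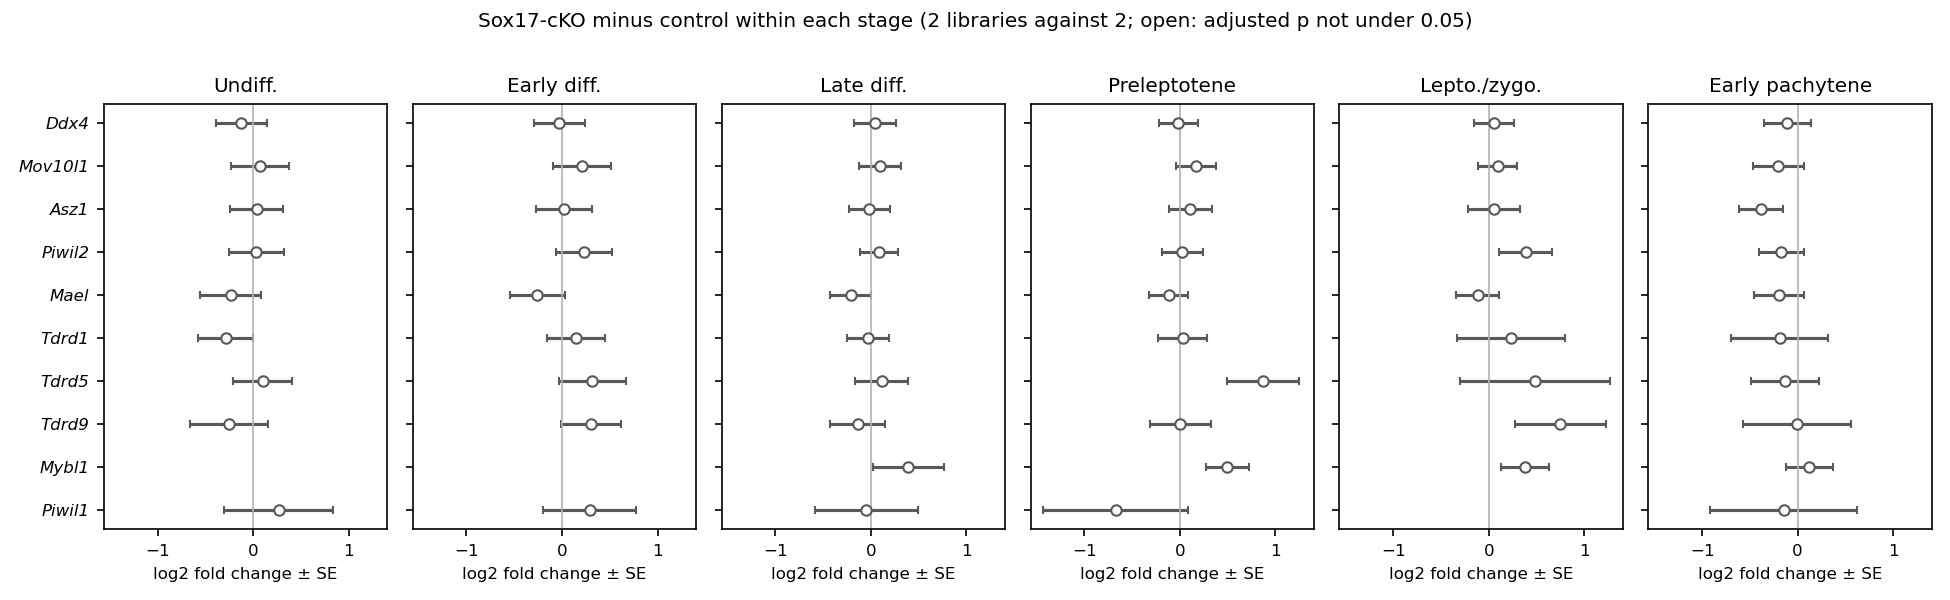
Log2 fold change ± SE of *Sox17*-cKO against control for each gene in each stage; points are absent where a gene did not pass the filter on low counts, and all are open because none passed an adjusted p of 0.05. The widest bars belong to *Tdrd5* in leptotene and zygotene and to *Piwil1* at early pachytene and in preleptotene cells.

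Libraries of the same number were more alike than libraries of the same genotype. At early pachytene 7 of the 10 genes were higher in replicate 1 than in replicate 2 of both genotypes, with the log2 difference largest for *Piwil1* (replicate 2 minus replicate 1 -2.25 in control and -1.39 in *Sox17*-cKO) and *Tdrd9* (-1.05 and -1.54). The share of all genes with that pattern was not counted, so it cannot be called particular to these genes. Over 9427 genes the median absolute log2 difference there was 0.379 between replicate numbers and 0.155 between genotypes. The summed level of the 11 early pachytene markers was also higher in replicate 1 (1558, 934, 1369.9 and 1004 CPM), and the median depth of these cells was lower (5005, 8078.5, 3349 and 6534 UMIs). The part of either in the difference was not tested. Within replicate 1 alone 32 of the 50 tests of members between adjacent stages were called, against 42.1% of such tests over all genes, and within replicate 2 alone 26, against 40.9%.

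Sertoli markers differed between the stages as well. The 10 Sertoli markers, none of them at 0, summed to 416, 182, 430.0 and 227 CPM in undifferentiated spermatogonia, 3522, 509, 1941 and 418 CPM in leptotene and zygotene and 2997, 451, 2948 and 495 CPM at early pachytene, and all 10 had a higher mean in both later stages. At early pachytene these sums were 18.2, 2.92, 19.8 and 3.38% of those in Sertoli-like cells. The levels of 7 of the 8 genes that rose there were above those of Sertoli-like cells in 4 of 4 libraries, and *Tdrd1* in 3 of 4 (89.4, 45.2, 87.9 and 35.2 CPM against 24.9, 32.0, 42.1 and 35.2 CPM). In leptotene and zygotene, *Piwil1* and *Tdrd1* were below their Sertoli-like level in 4 of 4 libraries. In the replicate 2 libraries, where the Sertoli share at early pachytene was smallest, all 8 rises were called. The part of Sertoli RNA in the differences between stages was not tested.

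Among the somatic classes, *Ddx4* was at 36.5, 12.03, 55.3 and 15.7 CPM in Sertoli-like and 29.2, 8.99, 31.1 and 16.9 CPM in interstitial-like cells, against at least 290.5 CPM in the germ cell stages. The members were also set against *Ddx4* within each class of a library, as the ratio of their UMIs. For *Mov10l1* the ratio to *Ddx4* was 0.584, 0.575, 0.478 and 0.759 in Sertoli-like and 0.651, 0.652, 0.632 and 0.746 in interstitial-like cells. For *Mybl1* it was 0.832, 2.89, 0.847 and 2.44 in Sertoli-like cells against 0.308, 0.497, 0.292 and 0.482 in interstitial-like cells, and for *Tdrd1* 0.682, 2.66, 0.761 and 2.24 against 0.287, 0.433, 0.303 and 0.366. Both were above the highest ratio of any germ cell stage in 4 of 4 libraries. Other members exceeded that ratio too: in Sertoli-like cells *Piwil2*, *Tdrd5* and *Tdrd9* in both replicate 2 libraries, and in interstitial-like cells *Tdrd5* in 4 of 4 libraries, *Piwil1* in 3 of 4, *Tdrd1* in both replicate 2 libraries, *Tdrd9* in both controls, *Piwil2* in control 2 and *Mael* in control 1. In Sertoli-like cells *Piwil1* did so in control 2 and *Mael* in control 1. In levels, *Mybl1* was at 30.3, 34.8, 46.8 and 38.4 CPM in Sertoli-like and 8.98, 4.47, 9.07 and 8.13 CPM in interstitial-like cells, and *Tdrd1* at 24.9, 32.0, 42.1 and 35.2 and 8.38, 3.89, 9.40 and 6.17 CPM, without overlap. *Piwil2* in Sertoli-like cells exceeded its interstitial-like ratio clearly only in the replicate 2 libraries (0.5, 1.07, 0.392 and 0.957 against 0.497, 0.620, 0.373 and 0.563). These differences between classes, and the source of the RNA, were not tested. In the Leydig-like, macrophage-like, RT-like and endothelial-like cells the mean of each of the 10 genes was at most 23.5 CPM, from 0 to 30 UMIs per gene and class.

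**Figure D5:**
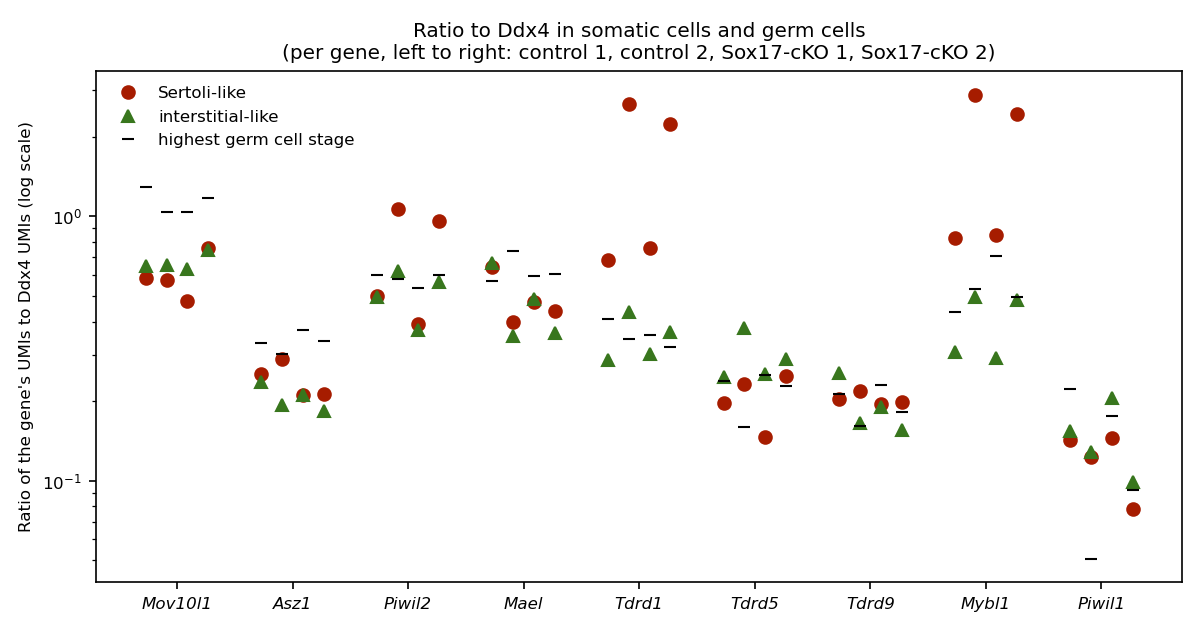
Ratio of each gene's UMIs to *Ddx4* UMIs (log axis) in Sertoli-like cells (circles), interstitial-like cells (triangles) and the germ cell stage with the highest ratio (dashes), for each of the 4 libraries. For *Tdrd1* and *Mybl1* the circles lie above both other symbols in every library, for *Tdrd5* the triangles lie above the dashes, and for *Mov10l1* and *Asz1* they do not lie above the dashes.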

How the data were processed

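Libraries were made with the 10x Genomics single-cell kit (v3 in the sample records, v3.1 in the methods), and the authors counted UMIs with Cell Ranger 6.0.2 or 6.1.2 against mm10. The deposited tables hold raw UMI counts per gene and barcode, with no normalization. The study's far lower limit on mitochondrial UMIs was not applied, since the median cell held 5.45 to 8.83% of them. Cells with 1000 to 4500 genes were integrated in Seurat 5.3.0 (CCA, 2000 variable features, 20 principal components) and clustered at a resolution of 0.4 into 19 clusters. Doublets were kept, because the caller (Scrublet) marked only 4, 168, 0 and 260 of 8182, 7113, 7514 and 7253 scored cells. In each library more cells were scored than analysed. The expected doublet shares were 10.7, 7.51, 9.81 and 8.79%, against 0.0489, 2.36, 0 and 3.58% marked. The low counts thus do not show that doublets were few. UMI counts were summed per stage and library, genes were filtered with filterByExpr, and tests used edgeR 4.0.16 (quasi-likelihood, TMM, two-sided, Benjamini-Hochberg, adjusted p of 0.05). Scripts were tested on simulated data. The members and lists were chosen with earlier results of these data known. All 10 members are named; of the other pathway genes, up to 3 higher and 3 lower by smallest adjusted p per step; and the 3 most correlated genes of *Piwil1*, *Piwil2* and *Mybl1*, of which 1 is not reported here. Alternatives changed the integration, resolution, cell limits, doublets, low-count filter, scaling, tool (DESeq2 1.42.0), replicate block and libraries, and the fits within a replicate number were added after seeing the data.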

Additional observations from a re-analysis of the deposited data

Results flagged for a closer look

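Among the 60 groups of 4 libraries (10 genes in 6 stages), Dixon's test at the 95% level marked 3 single libraries, and chance alone marks about 1 in 20. *Piwil2* in early differentiating spermatogonia was at 91.4 CPM in control 2, against 134.8 to 138.1 CPM in the other libraries. In late differentiating spermatogonia it was at 91.1 CPM in *Sox17*-cKO 1, against 80.3 to 81.6 CPM. *Mybl1* at early pachytene was at 120.1 CPM in control 1, against 148.9 to 154.3 CPM.

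Outside the germ cell stages, *Mybl1* had a mean of 37.6 CPM and *Tdrd1* a mean of 33.5 CPM in Sertoli-like cells, above their interstitial-like levels in 4 of 4 libraries; whether the cells make these RNAs was not tested. A cluster of 1201 cells that stayed unnamed, with a median of 2833 UMIs and 37.5% mitochondrial UMIs, had mean levels of 173.7 CPM for *Ddx4* and 299.8 CPM for *Mov10l1*. It held 333, 48, 679 and 141 cells and was left unnamed because mitochondrial genes were among its leading genes, as was *Kit*. Its thinned cells held a UMI of 2.19 of the 10 genes on average, against 2.14 in preleptotene cells. Whether these are germ cells was not tested, and they are in no stage sum.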

How the results depend on the processing

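Of 602 alternative values of 42 differences between stages, 531 kept direction and call, 59 lost the call, 6 gained one and 6 changed sign; 24 of the 40 called differences kept their call in every alternative that gave a value, among them the 8 rises at early pachytene. Signs changed for *Piwil2* from early to late differentiating spermatogonia (0.0041 without integration), for *Piwil1* from late differentiating spermatogonia to preleptotene (0.68 without integration), for *Tdrd5* between early pachytene and undifferentiated spermatogonia (0.14 without integration, 0.74 with an upper limit of 8000 genes, where it was called, and 0.081 below 10% mitochondrial UMIs) and for *Mael* in that contrast (-0.078 in the replicate 1 libraries, chosen after seeing the data). The causes were not tested. No integration and the limit of 8000 genes gave no separate leptotene and zygotene stage, so the steps into and out of it have no value there. The other stage names also covered other sets of cells in these clusterings. Without integration there were 3101 early and 580 late differentiating cells, against 1229 and 1902 in the main clustering.

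In the stage fits without 1 library, the share of all genes called was not counted. Leaving out 1 library gave 26 to 30 calls of members between adjacent stages (32 with all), and 7 to 8 between the last and the first stage (8). Between genotypes it gave 0 members, with 1 library left in a genotype and assumed to vary like the other pair. With the replicate number as a replicate block, 0 members and 113 genes were called between genotypes over the 6 stages, against 0 genes without it; no filter on low counts gave 19 genes, and leaving out 1 library 1 to 49. The labels do not say that the numbers pair the libraries, and the deviations of same-numbered libraries from their group means correlated at 0.45 to 0.72 over genes, with only 2 pairs.

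Without thinning, shares of cells with a UMI in undifferentiated, leptotene and zygotene, and early pachytene cells were 13.4 and 2.58% for *Piwil1* (the first 2 of these stages), 5.17, 67.0 and 45.2% for *Mybl1*, 60.0, 4.81 and 33.6% for *Tdrd5* and 94.8, 83.6 and 73.6% for *Ddx4*. Depth limits low genes most: *Piwil1* in leptotene and zygotene rests on 23 UMIs.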

Other observations

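Of the other pathway genes, chosen here after their values were seen, *Fkbp6* and *Mov10* were higher in Sertoli-like than in interstitial-like cells in 4 of 4 libraries. *Fkbp6*, which codes for a co-chaperone, was at 259.8, 279.6, 256 and 240.2 CPM in Sertoli-like and 51.9, 14.8, 47.2 and 23.3 CPM in interstitial-like cells, against 613, 722, 631 and 598 CPM in undifferentiated spermatogonia and 308, 225, 278 and 229 CPM in early pachytene cells, its germ cell stages with the highest and lowest mean. *Mov10*, an RNA helicase found in many tissues, was at 59.9, 40.7, 53.1 and 41.7 CPM in Sertoli-like and 9.13, 7.31, 13.4 and 8.13 CPM in interstitial-like cells, against 63.1, 51.9, 61.3 and 27.3 CPM in undifferentiated spermatogonia and 17.2, 1.64, 10.2 and 2.78 CPM in early pachytene cells, again the stages with the highest and lowest mean. These differences between classes were not tested.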
